A study of Mus musculus with 9 samples.

Results

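Purkinje cells are the large inhibitory neurons whose axons are the sole output of the cerebellar cortex. Glutamate from granule cell fibres activates the receptor mGluR1 on their dendrites, which through Gq and phospholipase C makes IP3, and IP3 opens the calcium channel encoded by Itpr1 in the endoplasmic reticulum. Purkinje cells carry unusually large amounts of calcium-binding proteins and of this channel, and their genes are used as markers of intact cerebellum. The 10 genes described here were chosen by name as Purkinje cell genes and were all found among the 24444 gene symbols of the count table. They are Pcp2, Rgs8 and Ppp1r17, which regulate G proteins or protein phosphatases, the calcium or calmodulin binders Calb1, Pvalb and Pcp4, the calcium release genes Itpr1, Car8 and Homer3, and the nuclear receptor gene Rora.

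RNA was sequenced in 9 mouse libraries in 3 groups of 3. The controls are normal cerebellum from the athymic CD1-nude strain, with no engineered allele in the labels. The EV group (read here as empty vector) and the MycT58A group are orthotopic tumours in CD1-nude hosts, grown from implanted cells of Blbp-Cre mice that carry Ctnnb1Ex3flx/flx, Trp53flx/flx and Pik3caE545K +/flx. Both tumour groups share these alleles, and the MycT58A group adds the T58A form of Myc. The Blbp (Fabp7) promoter is active in radial glia and other neural progenitors. Only tumour regions that were positive for GFP were dissected. The labels give no ages and leave unsaid if each tumour grew from its own cell preparation, so p-values measure only the spread between these libraries.

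Total counts ranged from 16631523 to 30410089 per library, and 15171 genes were tested. Levels are CPM, counts relative to the library size, which was scaled with the TMM method. The library labelled EV replicate 3 held Myc at 762 CPM, inside the MycT58A range of 727 to 918 CPM and above the other EV libraries (360 and 19.9 CPM), so the comparison of EV tumours with control was also made without it. All 10 genes then still fell, by 5.79- to 676-fold (edgeR adjusted p from 4.79e-05 to 0.0032), with a median log2 fold change of -8.07. The controls also differed in Myc, with 23, 36 and 686 counts (0.94, 1.595 and 32.02 CPM) in replicates 1, 2 and 3. Control replicate 3 thus lay above the EV library at 19.9 CPM, and the cause was not tested. Without control replicate 3 all 10 genes were still called lower in both tumour groups by edgeR. The growth protocol speaks of cortex while the tissue and source labels say cerebellum. In the 3 controls 6 forebrain genes summed to 5.63 to 6.07 CPM, with Neurod6 at 2.82, 4.34 and 4.67 CPM and Emx1 at 0 in all 9 libraries. Cbln3, a cerebellin of granule neurons, stood at 1332 ± 306 CPM in the controls (SD, n = 3).

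The Purkinje genes were abundant in control cerebellum and nearly gone from the tumours. Together they took 1.26% to 1.35% of all counts in the 3 controls, and 0.0141% to 0.0431% in the 6 tumour libraries. All 10 fell in EV tumours (edgeR quasi-likelihood test, adjusted p from 2.21e-05 to 0.0011), where 26.3% of all genes tested were called lower and 30.7% higher. All 10 also fell in MycT58A tumours (edgeR adjusted p from 3.35e-05 to 0.000938), against 31% of all genes called lower and 31.2% higher. The median log2 fold change of the 10 was -8.14 in EV and -7.49 in MycT58A tumours, against 0.143 and -0.025 over all genes tested. No control library overlapped a tumour library for any of the 10, and 29.4% of all genes tested had all tumour libraries below all controls: the lowest control stood 3.92 times (Homer3) to 118 times (Calb1) above the highest tumour library. Both comparisons share the control libraries, so they are not independent of each other. In bulk tissue fewer Purkinje cells and less of these RNAs per cell cannot be told apart.

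**Figure D1:**
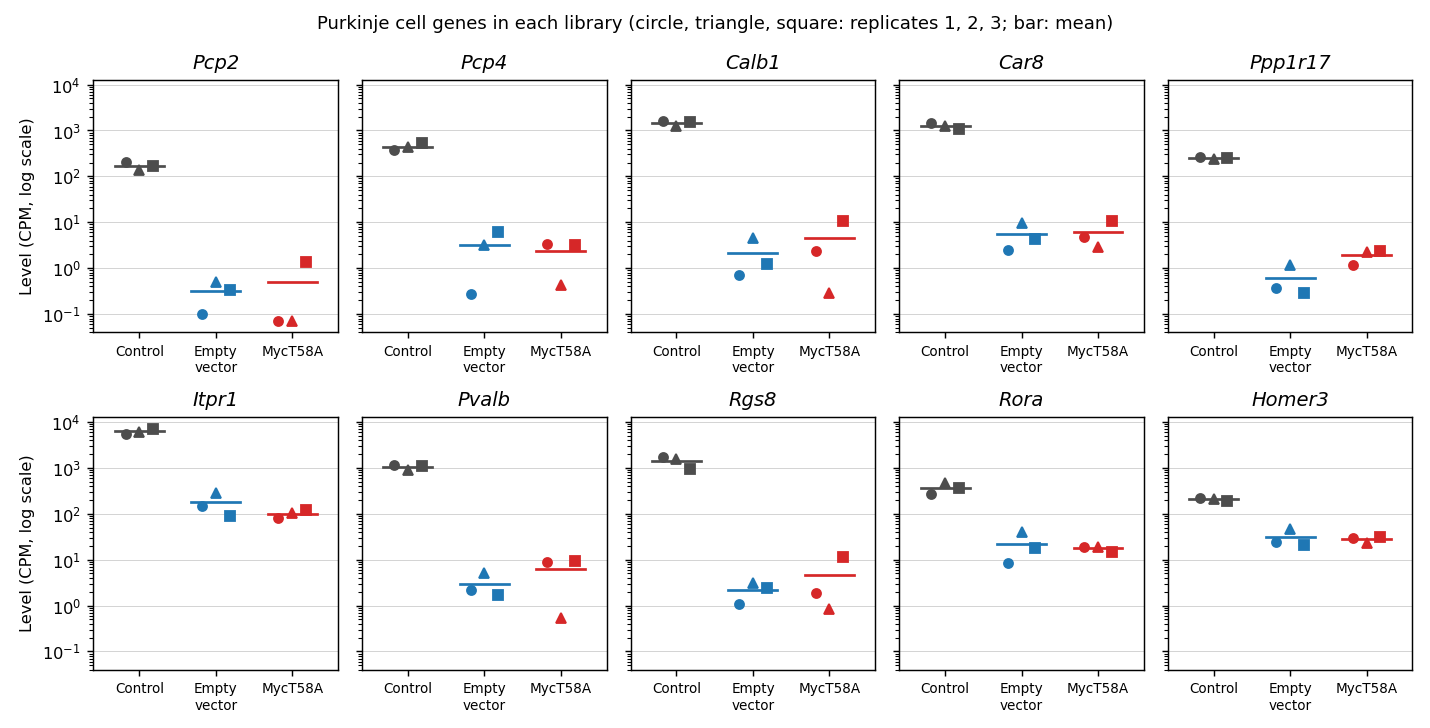
Level of each of the 10 Purkinje cell genes (CPM, log axis) in the 3 control, 3 EV and 3 MycT58A libraries, with 1 point per library (symbols mark the replicate) and a bar at the group mean. All control points lie above all tumour points. Itpr1, Rora and Homer3 have the highest tumour CPM, which is not scaled to gene length. Per kilobase of exon Rora stood at 1.71 CPM in EV and 1.34 in MycT58A libraries, below Pvalb at 2.87 and 5.97.

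Promoter sequences from RefSeq (build GRCm38.p6) were found for 6 of the 10 genes, Pcp2, Pcp4, Pvalb, Rgs8, Rora and Homer3. They were searched on both strands for AGGTCA, the core motif of ROR nuclear receptors such as the product of Rora. Its flanking bases were not considered. Pcp2 had 4 windows, Rgs8 3 and Pvalb 2, and the window nearest the GENCODE start was used. The motif stood in the 250 bases before the start of 3 of the 6 genes, Pcp2, Pcp4 and Homer3, and in 14% of all 32851 such windows. The stretches that hold it are shown 5′ to 3′ on the gene's strand with the motif in capitals, followed by the promoter of Rora itself, which held no match. For Pcp2 and Homer3, whose windows overlap annotated exons by 78 and 172 bases, only 30 bases around the motif are shown. The Homer3 stretch lies before the RefSeq start but inside the first exon of GENCODE, which starts further upstream.
Pcp2, chr8:3625548-3625577, minus strand: cttttaaaaggccttctcAGGTCAgagacc
Homer3, chr8:70282830-70282859, plus strand: agttcctcctctTGACCTcctggtgccctc
Pcp4, chr16:96467356-96467605, plus strand: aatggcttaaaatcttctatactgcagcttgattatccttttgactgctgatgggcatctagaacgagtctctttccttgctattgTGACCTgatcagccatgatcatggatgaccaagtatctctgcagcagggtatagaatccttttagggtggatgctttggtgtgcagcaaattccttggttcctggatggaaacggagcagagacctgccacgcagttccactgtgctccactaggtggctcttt
Rora, chr9:68653536-68653785, plus strand: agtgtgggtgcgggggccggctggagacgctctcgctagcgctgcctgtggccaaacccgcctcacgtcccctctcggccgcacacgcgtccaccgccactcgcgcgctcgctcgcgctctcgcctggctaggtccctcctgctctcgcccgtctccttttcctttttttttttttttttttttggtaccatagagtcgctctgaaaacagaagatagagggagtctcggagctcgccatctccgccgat
The motif begins 12 bases before the start of Pcp2, 157 before that of Homer3 and 164 before that of Pcp4, and lies on the gene's own strand in Pcp2 and on the other strand in Homer3 and Pcp4. A match of letters is a description and shows no binding, and a part of Rora in the falls was not tested.

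Pcp2 (chromosome 8, 3623371 to 3625545, minus strand, mm10 by GENCODE vM21) encodes a small GoLoco protein that modulates Gi and Go proteins and is found in Purkinje cells and retinal bipolar cells. It stood at 206, 138 and 167 CPM in the controls, at 0.103, 0.51 and 0.34 CPM in the EV libraries and at 0.072, 0.071 and 1.36 CPM in the MycT58A libraries. The tumour values rest on 3, 12, 6, 2, 2 and 32 counts. MycT58A replicate 3 therefore stood apart, with an exact 95% Poisson interval of 0.933 to 1.93 CPM while the intervals of the other MycT58A libraries ended at 0.26 CPM or lower, intervals that cover counting error only. The log2 fold change was -9.08 ± 1.16 SE in EV tumours (adjusted p = 0.000321 by edgeR) and -8.44 ± 1.11 SE in MycT58A tumours (adjusted p = 0.000309 by edgeR). Without MycT58A replicate 3 the fall in that group was 2209-fold instead of 348-fold, and without EV replicate 2 the fall in the other was 830.1-fold instead of 543-fold. Exons of Pet100 on the opposite strand cover 51.5% of the exon bases of Pcp2, and the sources do not say whether counting used strand. Pet100, an assembly factor of cytochrome c oxidase, stood at 12.6 ± 1.07, 14.3 ± 6.08 and 14.4 ± 1.47 CPM in control, EV and MycT58A libraries (SD, n = 3). Its part in the low tumour counts of Pcp2 was not tested.

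Rgs8 (chromosome 1, 153653025 to 153700323) encodes a regulator that speeds the GTP hydrolysis of G protein alpha subunits. It stood at 1759, 1567 and 949.7 CPM in the controls, at 1.1, 3.1 and 2.38 CPM in the EV libraries and at 1.91, 0.852 and 11.3 CPM in the MycT58A libraries. Control replicate 3 was the lowest control, at 1.85 times under the highest, and MycT58A replicate 3 was again the highest tumour library. The fall was 652-fold in EV tumours (log2 fold change -9.35 ± 1.16 SE, adjusted p = 0.00028 by edgeR). In MycT58A tumours it was 305-fold (adjusted p = 0.00033 by edgeR), or 1023-fold without replicate 3.

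Ppp1r17 (chromosome 6, 56017497 to 56032689), also called G-substrate, encodes an inhibitor of protein phosphatases that cGMP-dependent protein kinase activates. Its controls lay closest together of the 10 genes, at 262, 239 and 253 CPM. The EV libraries stood at 0.377, 1.15 and 0.283 CPM and the MycT58A libraries at 1.19, 2.2 and 2.39 CPM. All MycT58A libraries lay above all EV libraries, which was so for no other gene of the 10, though by a narrow margin between 1.19 and 1.15 CPM. Of all genes tested 18.2% had all MycT58A above all EV libraries, and 31.8% did not overlap in either direction, so 1 in 10 is not more than the background. The fall against control was 409.7-fold in EV tumours (adjusted p = 2.21e-05 by edgeR; 728-fold without replicate 2) and 130.4-fold in MycT58A tumours (adjusted p = 3.35e-05 by edgeR).

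The calcium binders fell as well. Calb1 (chromosome 4, 15881264 to 15908064) encodes calbindin, a fast calcium buffer that fills the Purkinje cell body and dendrites. It stood at 1623, 1283 and 1558 CPM in the controls, at 0.719, 4.5 and 1.25 CPM in the EV libraries and at 2.37, 0.284 and 10.9 CPM in the MycT58A libraries. Its tumour libraries spread over 38.4-fold, the widest range of the 10 genes, with MycT58A replicates 2 and 3 at the ends. The fall was 688-fold in EV tumours (adjusted p = 0.00079 by edgeR; 1536-fold without replicate 2) and 330.1-fold in MycT58A tumours (adjusted p = 0.000938 by edgeR; 1109-fold without replicate 3).

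Pvalb (chromosome 15, 78191114 to 78206400) encodes parvalbumin, a slower calcium buffer that molecular layer interneurons also make. It stood at 1146, 897 and 1071 CPM in the controls, at 2.16, 5.1 and 1.7 CPM in the EV libraries and at 8.99, 0.532 and 9.12 CPM in the MycT58A libraries. MycT58A replicates 1 and 3 lay above, and replicate 2 below, every EV library. The fall was 346-fold in EV tumours (adjusted p = 0.000356 by edgeR; 530.2-fold without replicate 2) and 167-fold in MycT58A tumours (adjusted p = 0.000437 by edgeR).

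Pcp4 (chromosome 16, 96467606 to 96525793) encodes a small protein that binds calmodulin and changes how fast it takes up and releases calcium. It stood at 368, 447 and 524 CPM in the controls, at 0.274, 3.27 and 6.24 CPM in the EV libraries and at 3.31, 0.426 and 3.24 CPM in the MycT58A libraries. The library labelled EV replicate 3 was the highest tumour library for this gene. Exons of Igsf5 on the same strand cover 23.7% of its exon bases, and Igsf5 stood at 0.286 CPM or lower in every library. The fall was 139-fold in EV tumours (adjusted p = 0.0011 by edgeR), or 255-fold without that library, and 192-fold in MycT58A tumours (adjusted p = 0.000719 by edgeR).

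Among the calcium release genes, Itpr1 (chromosome 6, 108213096 to 108551109), the IP3 receptor, kept a measurable level in every tumour. It stood at 5471, 5956 and 7161 CPM in the controls, at 151, 287 and 89.0 CPM in the EV libraries and at 79.5, 103 and 118.5 CPM in the MycT58A libraries. It held 42.7%, 47.7% and 53.8% of the counts of the 10 genes in the controls, and 52.6% to 79.4% in the tumour libraries. The fall was 35.3-fold in EV tumours (log2 fold change -5.14 ± 0.47 SE, adjusted p = 7.6e-05 by edgeR) and 61.8-fold in MycT58A tumours (log2 fold change -5.95 ± 0.49 SE, adjusted p = 4.36e-05 by edgeR). The channel is widely made outside the cerebellum, for example in smooth muscle.

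Car8 (chromosome 4, 8143362 to 8239041) encodes a carbonic anhydrase relative without enzyme activity that binds the IP3 receptor and lowers its affinity for IP3. It stood at 1475, 1279 and 1066 CPM in the controls, at 2.43, 9.77 and 4.42 CPM in the EV libraries and at 4.79, 2.95 and 10.8 CPM in the MycT58A libraries. Its tumour groups overlapped over nearly their whole range. The fall was 229.7-fold (adjusted p = 8.99e-05 by edgeR) and 207-fold (adjusted p = 8.1e-05 by edgeR) in EV and MycT58A tumours, or 373-fold without EV replicate 2 and 327-fold without MycT58A replicate 3.

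Homer3 (chromosome 8, 70282827 to 70294361) encodes a scaffold that ties mGluR1 to the IP3 receptor, and it had the smallest fold change of the 10 in both comparisons. It stood at 226, 213 and 186 CPM in the controls, at 23.6, 47.5 and 21.0 CPM in the EV libraries and at 29.7, 23.5 and 30.7 CPM in the MycT58A libraries. The fall was 6.78-fold in EV (log2 fold change -2.76 ± 0.33 SE, adjusted p = 0.000228 by edgeR) and 7.45-fold in MycT58A tumours (adjusted p = 0.000155 by edgeR). Exons of Ddx49, a helicase gene on the opposite strand, cover 25.4% of the exon bases of Homer3. Ddx49 rose from 14.7 ± 1.04 CPM in controls to 44.5 ± 21.1 in EV and 83.3 ± 4.92 in MycT58A libraries (SD, n = 3; adjusted p = 0.00289 and 0.000287 by edgeR). Whether its reads add to the tumour counts of Homer3 was not tested.

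Rora (chromosome 9, 68653786 to 69388246) encodes the nuclear receptor whose loss in the staggerer mouse stops Purkinje cell maturation. It stood at 273, 474 and 364 CPM in the controls, at 8.32, 40.9 and 17.7 CPM in the EV libraries and at 19.2, 18.6 and 14.8 CPM in the MycT58A libraries. The 3 MycT58A libraries lay within the EV range. The fall was 16.6-fold in EV (log2 fold change -4.05 ± 0.56 SE, adjusted p = 0.000474 by edgeR) and 21.1-fold in MycT58A tumours (adjusted p = 0.000279 by edgeR). Without EV replicate 2 the first was 28.4-fold.

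Levels can be compared between genes only per length, here as CPM per kilobase of annotated exon in the controls. Pvalb was highest at 997 ± 123 (SD, n = 3), followed by Pcp4 at 435 ± 76.2, Itpr1 at 338 ± 47.5, Car8 at 330.4 ± 53.0 and Calb1 at 307 ± 37.3. The control ranges of these last 4 overlapped from each to the next, so their order is not resolved. Rgs8 (148 ± 43.9) and Ppp1r17 (143 ± 6.38) also overlapped. Pcp2 (93.1 ± 18.8), Homer3 (60.5 ± 5.86) and Rora (28.3 ± 7.68) came last, each with all 3 libraries below those of the gene before it. In the tumours Itpr1 and Homer3 had the most RNA per length in EV libraries, at 9.58 and 8.93 CPM per kilobase, and Homer3, Pvalb and Itpr1 in MycT58A libraries, at 8.13, 5.97 and 5.47.

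The share of control that each gene kept is given by library. Expressed as a percentage of the control mean, the median over the 10 genes was 0.17%, 0.612% and 0.274% in the EV libraries and 0.607%, 0.163% and 0.863% in the MycT58A libraries. Homer3 kept the largest share in 6 of 6 tumour libraries, 10.1% to 22.8%. Rora kept 2.25% to 11.04% and Itpr1 1.28% to 4.63%. The other 7 genes stayed at or under 1.4% in every tumour library. In MycT58A replicate 3 those 7 lay within 1.31-fold of each other, from 0.726% (Pcp4) to 0.95% (Ppp1r17) of control, and 6 of the 10 genes had their highest tumour value there. In the other 5 tumour libraries the same 7 spread over 3.53- to 45.9-fold. The widest spread was in MycT58A replicate 2, where Calb1 stood at 0.0191% and Ppp1r17 at 0.876% of control. The 3 genes with the largest shares were set aside after these values were seen.

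Markers of other cerebellar cells were read the same way. Granule neuron genes, 8 in all, had a median of 0.218%, 0.693% and 0.327% of control in the EV libraries and 0.498%, 0.286% and 0.983% in the MycT58A libraries. MycT58A replicate 3 was thus the highest tumour library for granule neuron genes as for the Purkinje genes, and EV replicate 1 the lowest for granule neuron genes. None of the 8 was at 0 in any library, and their summed level was 3992 to 5707 CPM in controls, 12.2 to 38.2 in EV and 30.2 to 66.5 in MycT58A libraries. Over 8 pan-neuronal genes, among them Snap25 and Eno2, the median was 0.502% to 0.945% in EV and 0.384% to 2.12% in MycT58A libraries. For 10 interneuron genes, among them Gad1, which makes GABA, it was 0.616% to 0.942% and 1.49% to 2.6%. The Golgi cell gene Slc6a5 and the interneuron factor Pax2 were at 0 in all 3 EV libraries. Others of the 10 kept more: Lypd6 stood at 130%, 283% and 28.2% of control in the EV libraries. Kit kept 5.67% to 15.1% in EV and 22.1% to 32.7% in MycT58A libraries. Of the 10 genes 9 were called lower in each tumour group, against 26.3% and 31% of all genes. The median over 8 astrocyte and Bergmann glia genes was 4.22% to 9.02% in EV and 1.58% to 7.71% in MycT58A libraries. These genes were split. Gja1 stood at 101% to 177% of control in EV and 48.1% to 53.2% in MycT58A libraries, and Gfap at 54.8% to 94.1% and 1.69% to 74.2%. Of the 8 genes 6 were called lower in EV and 7 in MycT58A tumours, against 26.3% and 31% of all genes. For 8 oligodendrocyte genes the median in MycT58A replicate 1 was 15.7% while the 5 other tumour libraries had 0.755% to 4.95%. Summed over their lists, microglia genes stood at 172 to 209 CPM in controls, 137 to 509 in EV and 40.8 to 112 in MycT58A libraries, endothelial genes at 195 to 216, 51.2 to 252 and 46.7 to 83.0 CPM, choroid plexus genes at 12.1 to 69.7, 33.7 to 827 and 262 to 552 CPM, and muscle genes at 26.5 to 51.9, 37.1 to 931 and 10.04 to 49.3 CPM. Single genes weighed heavily in some of these sums. In EV replicate 1 Aqp1 held 431 of the 455 CPM of the choroid plexus genes, with Ttr at 0. Over the EV libraries the median of the choroid plexus list ran from 18.7% to 888% of control. Acta2 held 765 of the 931 CPM of the muscle genes in EV replicate 1, where Myh11 stood at 1.99 CPM. The part of normal cerebellum left in the dissected pieces in these values was not tested.

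**Figure D2:**
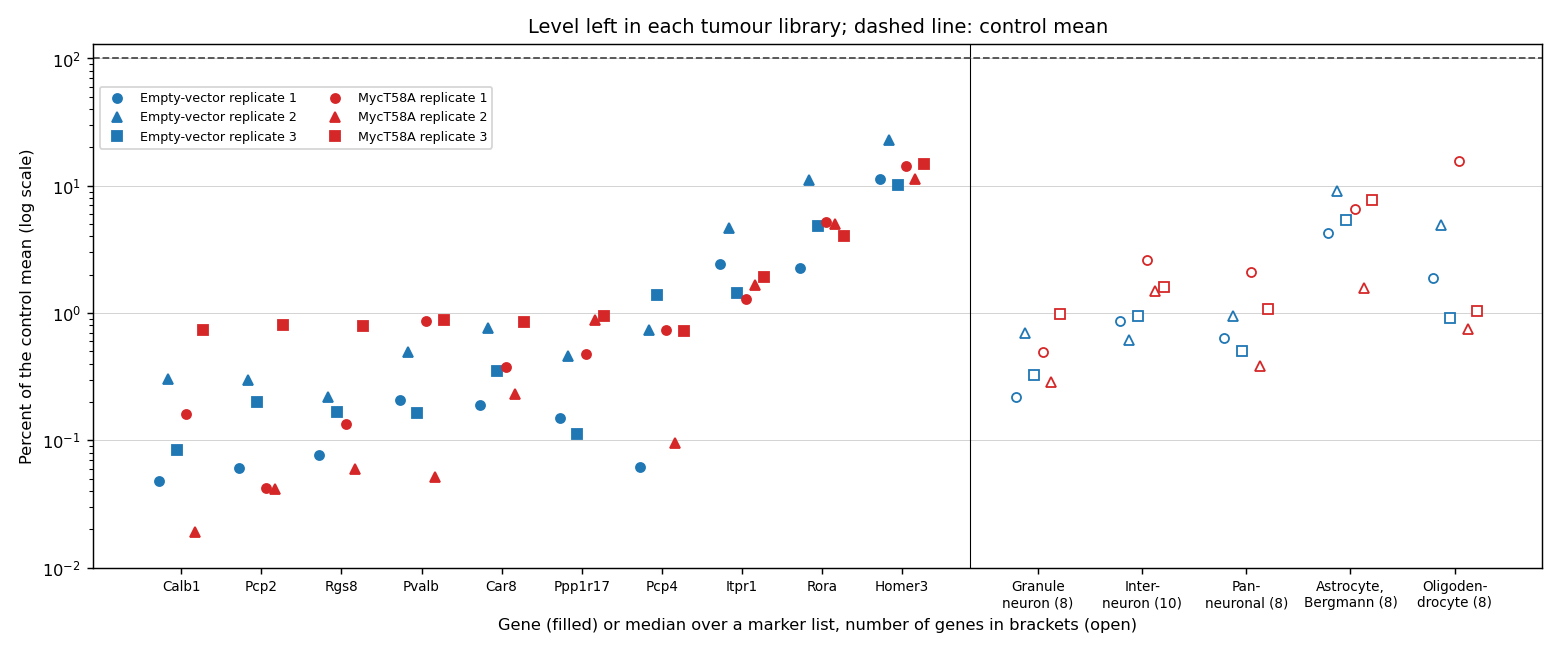
Level left in each tumour library as a percentage of the control mean (log axis), for each Purkinje cell gene (filled symbols) and as the median over 5 marker lists of other cerebellar cells (open symbols). Calb1, Pcp2, Rgs8, Car8, Ppp1r17 and Pvalb stay under 1% in all 6 libraries, and Homer3 lies at 10.1% to 22.8%. The red squares of MycT58A replicate 3 form a nearly level row over the first 7 genes.

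Whether MycT58A changed these genes within the tumours was asked by comparing the tumour groups. Myc itself did not pass between them (log2 fold change 1.13 ± 1.37 SE, adjusted p = 0.592 by edgeR). It stood at 360, 19.9 and 762 CPM in the EV libraries and at 918, 859 and 727 CPM in the MycT58A libraries. None of the 10 passed (edgeR adjusted p from 0.0654 to 0.873; 1 at unadjusted p under 0.05), where 5.02% of all genes tested were called lower and 3.28% higher in MycT58A tumours. By DESeq2 the count was 1 and by limma-voom with weights per group 0. With only the tumour groups in the fit, 9 genes were tested, without Pcp2, and 0 passed. Ppp1r17 came nearest, at 1.92 ± 0.646 CPM in MycT58A and 0.602 ± 0.474 CPM in EV tumours (SD, n = 3), a log2 fold change of 1.65 ± 0.48 SE (adjusted p = 0.0654 by edgeR). It was the gene that DESeq2 called (adjusted p = 0.0106), and it passed edgeR without EV replicate 2 (adjusted p = 0.00587). Over its 17 alternatives the adjusted p ran from 0.00587 to 0.344. Itpr1 had a log2 fold change of -0.81 ± 0.40 SE (adjusted p = 0.203 by edgeR). Without the library labelled EV replicate 3 it was the 1 gene of the 10 that passed (log2 fold change -1.12, adjusted p = 0.0383 by edgeR).

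None of the other 8 genes passed. Calb1, Rgs8 and Pvalb had log2 fold changes of 1.06 ± 1.05, 1.09 ± 0.85 and 1.05 ± 0.82 SE. Pcp2 stood at 0.64 ± 1.05 SE, Car8 at 0.15 ± 0.57, Pcp4 at -0.47 ± 0.93, Rora at -0.34 ± 0.50 and Homer3 at -0.14 ± 0.31. Among the tumour libraries alone Pcp2 did not pass the low-count filter, so its value here rests on a fit that includes the controls. Without MycT58A replicate 3 the signs of Pcp2, Calb1, Car8 and Rgs8 turned, to -2.03, -0.69, -0.51 and -0.65. With these standard errors a difference of several-fold between the tumour groups was not detectable for Pcp2, Calb1 or Pcp4.

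**Figure D3:**
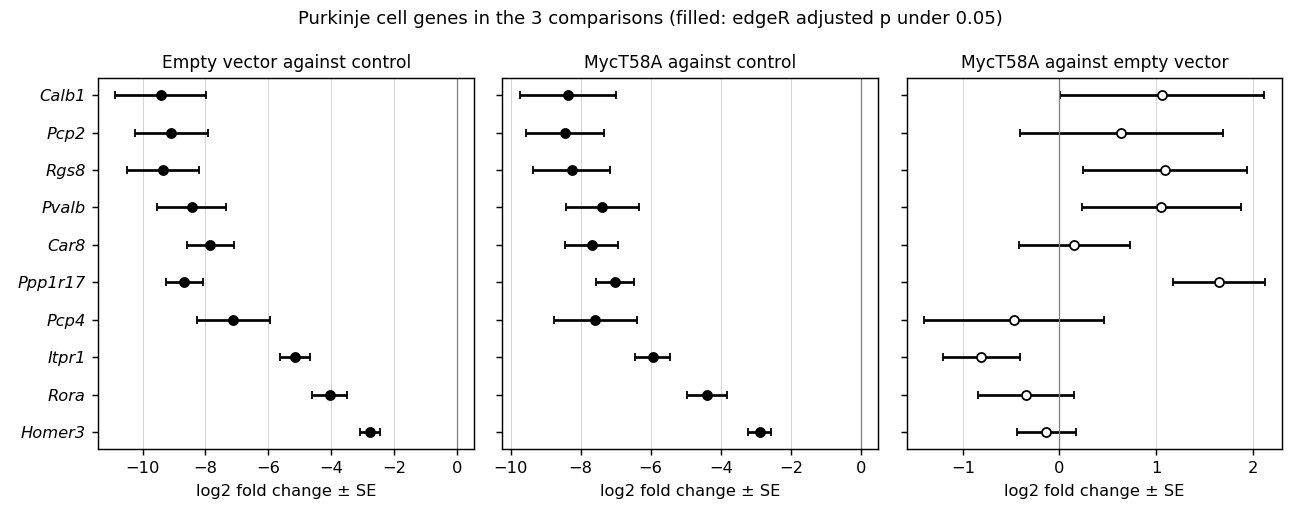
Log2 fold change ± SE of the 10 Purkinje cell genes in the 3 comparisons, filled where edgeR's adjusted p is under 0.05. All 20 values against control are filled and lie between -9.43 and -2.76, and all 10 between the tumour groups are open.

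Most of 16 further Purkinje cell genes fell as well. Against control 15 of the 16 fell in EV tumours (median log2 fold change -6.58) and 15 in MycT58A tumours (median -6.64), and 0 rose in either. Of all genes tested 26.3% were called lower in EV and 31% in MycT58A tumours. Lhx5, a LIM homeobox factor of developing Purkinje cells, stood at 24.3 ± 5.53 CPM in controls and at 0.0539 ± 0.0659 and 0.0857 ± 0.0373 CPM in EV and MycT58A tumours (SD, n = 3), falls of 395-fold (924-fold without EV replicate 2) and 263-fold. Cacna1a, the pore of the P/Q-type calcium channel, fell 48.1-fold (73-fold without the library labelled EV replicate 3) and 31.5-fold. Icmt, which methylates prenylated proteins and is not restricted to Purkinje cells, fell 7.05-fold and 7.85-fold. The gene that did not pass was Pcp4l1, a relative of Pcp4, at 41.8, 40.1 and 32.1 CPM in controls, 6.3, 96.3 and 4.71 in EV and 6.58, 3.09 and 9.42 in MycT58A libraries (adjusted p = 0.945 and 0.0626 by edgeR). EV replicate 2 lay above all controls, and the other tumour libraries below them. Without EV replicate 2 Pcp4l1 passed in EV tumours (6.84-fold lower, adjusted p = 0.00127 by edgeR). In MycT58A tumours it passed with any 1 EV library left out (adjusted p = 0.00063 to 0.0416 by edgeR), with only the 2 groups in the fit (adjusted p = 0.000326 by edgeR) and by limma-voom (adjusted p = 0.000119). Between the tumour groups 0 of the 16 passed edgeR (3 at unadjusted p under 0.05), and the counts by DESeq2 and limma-voom were 2 and 0. By edgeR 5.02% of all genes tested were called lower and 3.28% higher in that comparison.

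Of 25 further genes of mGluR1, IP3 and calcium signalling, 15 fell and 1 rose in EV tumours, and 18 fell and 0 rose in MycT58A tumours. Of all genes tested 26.3% were called lower and 30.7% higher in EV tumours, and 31% and 31.2% in MycT58A tumours. The medians of the 25 genes, -2.66 and -4.03, were smaller than those of the Purkinje genes, and many of the 25 are also used by other cells. The plasma membrane calcium pump Atp2b2 fell 415-fold and 169.6-fold (adjusted p = 9.23e-05 and 0.000122 by edgeR). Camk2a, a calmodulin-dependent kinase subunit, fell 71.9-fold and 125-fold, and the kinase Camk4, which granule neurons also make, fell 39.4-fold (60.2-fold without EV replicate 2) and 44.7-fold. The endoplasmic reticulum pump Atp2a3 fell from 363 ± 28.1 to 7.01 ± 3.98 CPM in EV and 18.3 ± 1 CPM in MycT58A tumours (SD, n = 3; adjusted p = 2.83e-05 and 5.55e-05 by edgeR). Itpr3, a second form of the IP3 receptor, rose 5.53-fold in EV tumours (adjusted p = 0.0103 by edgeR), at 18.8, 33.8 and 122 CPM against 8.07 to 12.1 CPM in controls. Without the library labelled EV replicate 3 that rise was 2.54-fold.

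**Figure D4:**
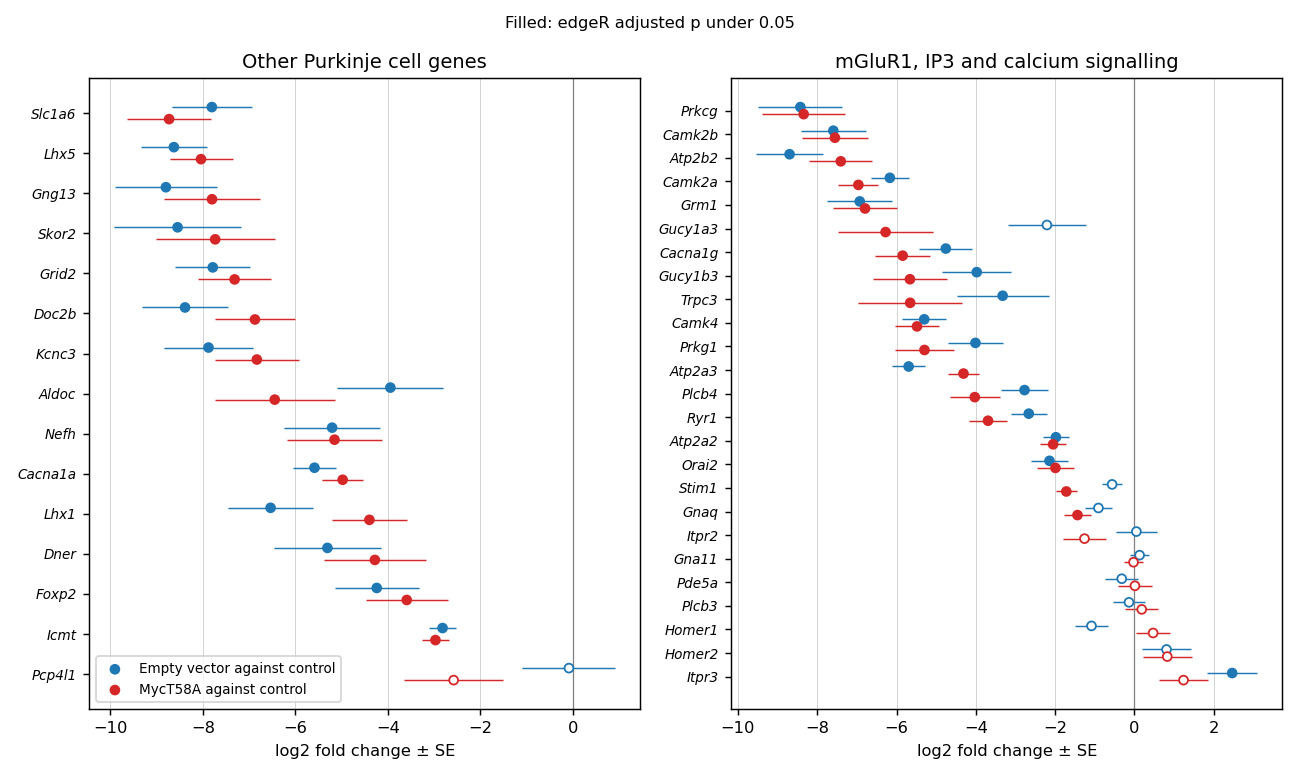
Log2 fold change ± SE against control of 15 of the 16 other Purkinje cell genes (left) and 25 genes of mGluR1, IP3 and calcium signalling (right), in EV (blue) and MycT58A (red) tumours, filled where edgeR's adjusted p is under 0.05. On the left every gene but Pcp4l1 is filled in both comparisons; on the right Itpr3 is the gene that rose.

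Of 21 relatives of the 10 genes 19 were tested. In EV tumours 6 of the 19 fell (31.6%, against 26.3% of all genes) and 3 rose (15.8%, against 30.7%). In MycT58A tumours 8 fell (42.1%, against 31% of all genes) and 1 rose (5.26%, against 31.2%). By group mean per length, none of the 21 stood above its Purkinje relative in controls, while 13 did in EV and 10 in MycT58A tumours. Because the 10 were chosen as Purkinje cell genes and fell, these counts say little about the relatives themselves. The median log2 fold change of the 19 relatives was -0.535 in EV and -1.26 in MycT58A tumours. The 13 include S100g, with 65 counts in EV replicate 3 and 0 in every other library. Gpsm2, a GoLoco protein that orients the mitotic spindle, stood at 1.49 CPM per kilobase against 93.1 for Pcp2 in controls. In tumours the order was the other way round, at 10.99 against 0.174 in EV and 15.8 against 0.275 CPM per kilobase in MycT58A libraries. Gpsm2 rose 7.39-fold and 10.7-fold (adjusted p = 0.000297 and 0.000127 by edgeR). Rgs5, a regulator of G protein signalling made by pericytes, stood at 31.0 CPM per kilobase in controls against 148 for Rgs8. In EV and MycT58A tumours it stood at 17.3 and 9.06 against 0.227 and 0.486 for Rgs8. Rgs5 did not rise: its log2 fold change was -0.84 in EV (adjusted p = 0.114 by edgeR) and -1.78 in MycT58A tumours (adjusted p = 0.0063 by edgeR). By group mean the relatives of Car8, Itpr1, Pvalb and Homer3 on the list stayed below them in all 3 groups. This did not hold in every library: in EV replicate 3 Itpr3 stood at 122 CPM and Itpr1 at 89.0 CPM.

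The genes whose log2 CPM over the 9 libraries was most like that of Pcp2, by Pearson correlation, were Mybpc3 (r = 0.998), Cntn6 (r = 0.996), Cahm (r = 0.996), Rgs8 (r = 0.995) and Skor2 (r = 0.995). Mybpc3, best known as the cardiac myosin-binding protein C, stood at 77.2, 61.8 and 67.2 CPM in the controls, and in the tumours MycT58A replicate 3 was its highest library at 1.11 CPM. Skor2 is a transcriptional corepressor of Purkinje cells. Over these 3 high and 6 low libraries r was over 0.95 for 885 of 15170 genes (5.83%), and it was 0.948 to 0.995 for the other 9 of the 10 Purkinje genes.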

How the data were processed

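The authors deposited whole-number read counts per gene symbol, 1 column per library, with bcl2fastq, TopHat and edgeR and the build mm10 per the submitters' processing notes. Tool versions, counting program, gene annotation and strand setting were not given in the sources used here, so overlapping genes may share reads. Controls were grouped by source name and tumours by genotype. Replicates were numbered in sample order and pair nothing.

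Low genes were removed by filterByExpr (minimum count 10, minimum total 15) in edgeR 4.0.16 under R 4.3.3. After TMM scaling, all 9 libraries entered 1 quasi-likelihood fit on the 3 groups (6 residual degrees of freedom). P-values were adjusted by Benjamini-Hochberg across the 15171 genes tested, with a threshold of 0.05. The SE is the log2 fold change over the root of F. The code was tested on simulated counts. Log2 CPM for correlations used a prior count of 2. Exon lengths and positions come from GENCODE vM21. Of 130 listed genes besides the 10, all were found, 2 of them through a synonym.

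The members, 13 further lists and the named genes were chosen with earlier results of these data known. Named are the 10 genes, the list members of smallest p (4 per direction and comparison, for the Purkinje and calcium lists), those that differed between the tumour groups, marker genes highest in controls, related genes above their member per length, and the 5 genes most like Pcp2. Not every gene that rule allows is printed. Of the further Purkinje genes 1 is counted but not reported here. Pet100, Ddx49, Myc, Emx1, Slc6a5, Pax2, Lypd6, Gja1, Gfap, Aqp1, Igsf5 and Pcp4l1 were added with their values in view.

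As alternatives, scaling was by RLE or by library size; the filter was dropped or set to 1 CPM; the fit held just the pair of groups compared; DESeq2 1.42.0 or limma-voom (limma 3.58.1, weights per group) replaced edgeR; the test was against a 1.5-fold minimum; and each library was left out in turn.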

Additional observations from a re-analysis of the deposited data

Results flagged for a closer look

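Of the 25 calcium signalling genes 2 (8%) differed between the tumour groups in the direct test, a share close to the 8.3% of all genes tested. Atp2a3, which pumps calcium into the endoplasmic reticulum, was higher in MycT58A than in EV tumours, at 17.2, 18.5 and 19.2 against 5, 11.6 and 4.42 CPM (log2 fold change 1.38 ± 0.34 SE, adjusted p = 0.0443 by edgeR). Stim1, the sensor of calcium in that store, was lower, at 25.6, 26.8 and 24.8 against 41.8, 81.8 and 48.4 CPM (log2 fold change -1.16 ± 0.25 SE, adjusted p = 0.0334 by edgeR). Both calls ended with any 1 control or any 1 MycT58A library left out, that of Atp2a3 also without EV replicate 1. Both also ended with only the 2 groups in the fit, by limma-voom and against a minimum fold of 1.5, and that of Atp2a3 with RLE factors and with library size alone. By DESeq2 both passed.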

How the results depend on the processing

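The falls of the 10 Purkinje genes against control kept their direction and passed the threshold under each of 17 alternatives, in both tumour groups. By limma-voom the fall was over 1.5 times larger for Pcp4 in EV tumours (281-fold) and for Pcp2 (789-fold), Calb1 (790.0-fold), Pvalb (301-fold) and Rgs8 (544-fold) in MycT58A tumours. The median share of control left was 0.44%, and 0.431% to 0.441% without 1 control library. Between the tumour groups DESeq2 called 1 of the 10, with 0 to 1 called without 1 library. Of the 16 other Purkinje genes DESeq2 called 2 (Aldoc and Lhx1), with 0 to 2 without 1 library. Of the 25 calcium signalling genes 2 were called, against 1 with RLE factors, 1 by library size alone, 4 with DESeq2, 0 with only the 2 groups, 0 with limma-voom, 0 against a minimum fold of 1.5, and 0 to 9 without 1 library (9 without EV replicate 3). The log2 difference between the tumour groups changed sign by limma-voom for Pcp2 (-0.371) and Pcp4 (0.0693), and without 1 library it ran from -2.03 to 1.23 for Pcp2, -1.02 to 0.414 for Pcp4, -0.686 to 2.22 for Calb1, -0.507 to 0.858 for Car8, -0.651 to 1.60 for Rgs8, -0.732 to 0.438 for Rora and -0.344 to 0.325 for Homer3. The cause was not tested. No paired analysis was possible because the replicate numbers only follow sample order. The lowest tumour counts, 2 to 3 for Pcp2, limit what can be compared there.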

Other observations

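Purkinje cells fall into stripes that differ in zebrin II, the protein of Aldoc, and the control libraries were read for genes known to follow these stripes, chosen after their values were seen. Genes of zebrin-positive cells were lowest in control replicate 1: Aldoc, which Bergmann glia and astrocytes also make, stood at 2033, 3253 and 6147 CPM in control replicates 1, 2 and 3, the glutamate transporter gene Slc1a6 at 263, 282 and 573 CPM, and the phospholipase gene Plcb3 at 46.3, 115 and 113 CPM. Plcb4, the phospholipase of zebrin-negative cells, was highest there, at 301, 222 and 199 CPM. The ratio of highest to lowest control was 3.02 for Aldoc, 2.18 for Slc1a6, 2.48 for Plcb3 and 1.51 for Plcb4, while among the 10 Purkinje genes it ran from 1.09 (Ppp1r17) to 1.85 (Rgs8). These are values of 3 libraries, with no test.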
